A study of Mus musculus with 12 samples.

Results

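The open chromatin around 9 genes of the TNF family of ligands was followed in regulatory T cells (Treg) with and without the transcription factor Ikaros, before and after stimulation through the T cell receptor. The genes were Tnf, Lta, Ltb, Tnfsf4, Tnfsf8, Tnfsf9, Tnfsf11, Tnfsf14 and Fasl. Their open chromatin regions (OCR) were all those of the ATAC-seq table that overlapped a gene body or the 20 kb on either side of it on mouse assembly mm9, which gave 84 of the 118680 regions in the table. ATAC-seq inserts sequencing adapters into accessible DNA with the Tn5 transposase, so that the read count of a region measures how accessible it is. YFP-positive splenic Treg were sorted from 2 genotypes. Foxp3-YFP-Cre mice are called wild-type (WT) here, and Ikzf1-fl-Foxp3-YFP-Cre mice are called Ikzf1-cko. Both genotypes carried the Cre driver and reporter at Foxp3, and in the second one it deletes the floxed Ikzf1 gene, which encodes Ikaros, in Foxp3-expressing cells. Each genotype was measured ex vivo and after 4 hr on plate-bound anti-CD3 and anti-CD28, with 3 libraries of 100000 cells in each of the 4 groups. The age of the mice used for these libraries is not given in the sources used here. The methods divided the sorted cells between both states, and the labels do not say which libraries came from the same mouse or sort.

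TNF family ligands are mostly membrane-bound trimers that act on receptors of neighboring cells, and the receptors signal through NF-kB or, where they carry a death domain, can trigger apoptosis. In T cells the ligand genes are typically switched on by T cell receptor signaling, and several of them cluster in the genome: Tnf, Lta and Ltb lie side by side within the major histocompatibility complex. TNF itself is an inflammatory cytokine whose second receptor is abundant on Treg, OX40 ligand, CD30 ligand, 4-1BB ligand and LIGHT are costimulatory ligands, RANK ligand drives osteoclast and lymph node development, and Fas ligand kills Fas-bearing cells.

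The libraries differed in depth and in how their reads were spread. The reads in regions numbered 5197669 to 8596567 in WT ex vivo, 11698967 to 15355521 in Ikzf1-cko ex vivo, 4808916 to 6047073 in WT stimulated and 9221901 to 11465957 in Ikzf1-cko stimulated libraries, so every Ikzf1-cko library was deeper than every WT library. The strongest 20% of the tested regions by mean signal took 48.2% to 51.4% of the reads in the WT stimulated libraries, against 57.3% to 64.5% in the other 9 libraries. All 5 Treg markers (Foxp3, Il2ra, Ctla4, Ikzf2 and Ikzf4) and all 5 CD4 T cell markers had a region within 2 kb of their start site, whereas 4 of 5 B cell markers, 4 of 5 myeloid markers and 2 of 4 NK markers had none. Of 3 erythroid markers 2 had a region, Gata1 and Klf1, with group means of 4.41 to 8.53 and 14.6 to 18.5 FPKM. Foxp3 had group means of 6.7 to 15.7 FPKM, so a region near the start site does not by itself mark the cell type. The mean signal over the start sites of Cd8a and Cd8b1, which mark CD8 T cells, was 10.4 to 12.1 FPKM in WT and 5.39 to 7.28 in Ikzf1-cko libraries ex vivo, and 9.99 to 11.7 and 7.34 to 8.06 after stimulation. The one B cell marker with a region, Cd79b, was at 4.01 to 5.18 FPKM in WT ex vivo and 9.52 to 13.4 in WT stimulated libraries. The part of these differences in the results given here was not tested, and in sorted bulk samples fewer accessible cells and less signal per cell cannot be told apart. Over Ikzf1 itself 2 of 28 tested regions were called different ex vivo. Deletion of part of a gene need not change the accessibility of the rest of it, so that these regions do not check the genotype.

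The sequences of the 5 regions on which the results turn most are given as they stand in the mm9 genome, 5′ to 3′. They are the part of the Tnf and Ltb start-site regions that lies directly upstream of the start site, on the gene's own strand, and the central 300 bases of 3 regions away from start sites, on the plus strand. Capitals mark matches on either strand to GGGAA (the core that Ikaros binds), TGANTCA (AP-1), TGGAAAA (NFAT), ACCACA (Runx) or the NF-kB letters, which are GGGA, any base and TTTCC.
Tnf start-site region, chr17:35338953-35339246, minus strand: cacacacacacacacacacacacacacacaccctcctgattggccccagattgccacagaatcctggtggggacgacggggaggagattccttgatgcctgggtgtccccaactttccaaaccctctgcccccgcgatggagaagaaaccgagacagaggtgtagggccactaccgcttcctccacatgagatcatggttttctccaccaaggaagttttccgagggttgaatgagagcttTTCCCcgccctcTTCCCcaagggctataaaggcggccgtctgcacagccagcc
Ltb start-site region, chr17:35331084-35331383, plus strand: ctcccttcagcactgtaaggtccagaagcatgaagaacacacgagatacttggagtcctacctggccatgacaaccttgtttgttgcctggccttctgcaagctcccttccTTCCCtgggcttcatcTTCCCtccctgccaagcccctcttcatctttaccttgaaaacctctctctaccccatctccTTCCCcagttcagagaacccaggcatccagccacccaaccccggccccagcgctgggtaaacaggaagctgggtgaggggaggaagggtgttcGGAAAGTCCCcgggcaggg
Fasl distal region, chr1:163696067-163696366, plus strand: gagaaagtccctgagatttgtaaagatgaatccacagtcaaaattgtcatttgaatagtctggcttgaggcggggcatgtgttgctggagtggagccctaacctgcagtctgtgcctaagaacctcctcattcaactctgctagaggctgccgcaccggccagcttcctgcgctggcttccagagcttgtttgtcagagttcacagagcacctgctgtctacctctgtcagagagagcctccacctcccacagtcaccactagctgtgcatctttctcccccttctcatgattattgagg
Tnfsf11 distal region, chr14:78675486-78675785, plus strand: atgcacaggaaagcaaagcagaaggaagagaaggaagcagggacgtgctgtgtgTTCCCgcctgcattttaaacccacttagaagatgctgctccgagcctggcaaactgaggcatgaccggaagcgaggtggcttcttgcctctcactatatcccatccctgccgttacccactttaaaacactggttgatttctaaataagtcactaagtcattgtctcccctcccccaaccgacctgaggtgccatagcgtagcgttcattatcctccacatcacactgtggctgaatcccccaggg
Tnfsf9 downstream region, chr17:57248235-57248534, plus strand: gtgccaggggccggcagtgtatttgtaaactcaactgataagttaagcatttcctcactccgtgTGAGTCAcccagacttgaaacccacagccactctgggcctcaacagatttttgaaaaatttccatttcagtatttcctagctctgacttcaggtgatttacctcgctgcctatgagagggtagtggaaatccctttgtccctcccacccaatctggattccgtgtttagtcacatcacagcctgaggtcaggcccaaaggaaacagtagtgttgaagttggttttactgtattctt

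The Tnf window holds 2 Ikaros cores, shortly before the letters TATAAA, and no match to the other 4 motifs. The Ltb window holds 3 Ikaros cores and 1 NF-kB match close to the start site, and these do not overlap, although an NF-kB match with A at its free base would contain the Ikaros core. The Tnfsf11 window holds 1 Ikaros core, the Tnfsf9 window 1 AP-1 match and the Fasl window none of the 5. Among 4407 tested regions within 10% of 300 bases in length, 56.6% held an Ikaros core, 15.6% an AP-1 match, 0.703% an NF-kB match, 5.65% an NFAT match and 25.4% a Runx match. Over their whole length, 48 of the 61 tested ligand regions (78.7%) held the Ikaros core, against 80.8% of all 69957 tested regions. For the other motifs the shares were 32.8% against 23.9% for AP-1, 4.92% against 1.63% for NF-kB, 19.7% against 12.9% for NFAT and 45.9% against 43.2% for Runx. The ligand regions were stronger than most regions, with a median of 8.71 CPM, counts scaled to the library's reads in all regions, against 5.6 for all tested regions, and these shares are not matched for length. A match of letters is not evidence that a factor binds there.

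Of the 84 regions, 43 were intergenic, 24 lay within introns and 17 touched an exon, and 34 overlapped one of the 9 genes. The windows of Tnf, Lta and Ltb overlap and shared 16 distinct regions. There were 22 regions around Tnfsf8, 14 around Tnfsf11, 10 each around Tnfsf4 and Fasl, 7 around Tnfsf9 and 5 around Tnfsf14. A region was tested if it had at least 3.6 CPM in at least 3 libraries, which 61 did, 45 of them in all 12 libraries and none through 1 group alone. The 23 others were short, with a median length of 273 bases against 628 for the tested ones, and ranged from 1.7 to 18.6 FPKM (reads in the region per kilobase of its length, scaled to the library's reads in all regions). A difference is said here to have passed the FDR when edgeR's quasi-likelihood test gave a Benjamini-Hochberg adjusted p under 0.05 over all 69957 regions, and to be called when the log2 fold change was also over 1 in size. "Rose", "fell", "higher" and "lower" are used of regions that passed the FDR. Regions around one gene are neighbors and not independent of each other.

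Between genotypes the ligand genes showed small differences, most of them outside the Tnf-Lta-Ltb locus with more signal in Ikzf1-cko Treg. In that locus the log2 fold change was above 0 in 7 of 15 tested regions ex vivo and in 4 after stimulation. The medians there were -0.02 and -0.26. Ex vivo, 1 of the 61 tested regions was called, a gain at Tnfsf11, where 4.63% of all tested regions were called in either direction. At the FDR alone 9 regions were higher in Ikzf1-cko Treg and 1 was lower, against 8.78% higher and 12.7% lower of all regions. The log2 fold change was above 0 in 41 of 61 regions, against 38.0% of all regions, with a median of 0.15 against -0.13. After stimulation edgeR called none of the 61 different between genotypes, where it called 21.3% of all regions. That background was 9.16%, 11.8% and 10.1% with WT stimulated replicate 1, 2 or 3 left out, 6.05% with loess normalization against abundance and 2.5% among the regions that met the filter in all 12 libraries. DESeq2 and limma also called 0, and 30 of the 61 had an unadjusted p under 0.05. At the FDR alone 22 were higher in Ikzf1-cko Treg and 3 lower, against 20.4% and 30.7% of all regions, with 41 of 61 above 0 against 43.6% of all regions and a median of 0.24 against -0.11. Both differences were above 0 in 33 of the 61 regions, against 29.6% of all regions.

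Part of the distance from the background was shared with other strong regions. Among the 34257 regions that met the filter in all 12 libraries, the median difference was 0.04 ex vivo and 0.18 after stimulation, and for the 45 ligand regions among them it was 0.16 and 0.33. Of these 45 regions 9 were higher and 1 lower ex vivo, against 16.0% and 11.5% of such regions, and 21 were higher and 3 lower after stimulation, against 36.7% and 9.86%. With loess normalization against abundance, which removes a trend of the differences with signal strength, 13 of the 61 were higher and 1 lower ex vivo, against 7.97% and 8.11% of all regions. After stimulation it gave 12 higher and 5 lower, against 12.7% and 15.0%. With TMM scaling the median of all regions ex vivo moved from -0.13 to -0.02, and 20 ligand regions were higher and none lower, against 14.4% and 8.69% of all regions. With every library thinned to the reads of the shallowest, 8 were higher and none lower ex vivo, against 5.65% and 7.84%, and 15 were higher and 3 lower after stimulation, against 17.6% and 27.0%.

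Stimulation moved ligand regions in both directions. In WT Treg 2 regions were called higher after stimulation, the start sites of Tnf and Ltb, and 1 lower, at Fasl, where 17.7% of all regions were called higher and 2.32% lower. The share called higher was 5.06%, 6.75% and 5.89% with WT stimulated replicate 1, 2 or 3 left out and 3.42% with loess normalization, and among the regions that met the filter in all libraries 0.438% were called higher and 3.18% lower. The count of called ligand regions was 4 with loess normalization and 2 to 4 with a library left out, the 2 without WT stimulated replicate 2. At the FDR alone 10 rose and 14 fell, against 26.9% and 20.7% of all regions, and with loess normalization 11 rose and 4 fell, against 16.1% and 14.9%. In Ikzf1-cko Treg the called region was the same one at Fasl, where 3.65% of all regions were called and 0.632% were called lower. At the FDR alone 10 rose and 9 fell, against 12% and 11.5% of all regions, and with TMM scaling 7 rose and 13 fell, against 8.78% and 13.5%. The plot of log2 fold changes by gene shows that the rises and falls were split by locus: in WT Treg 7 of the 10 rises lay in the Tnf-Lta-Ltb locus, and 6 of the 14 falls lay around Fasl.

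**Figure D1:**
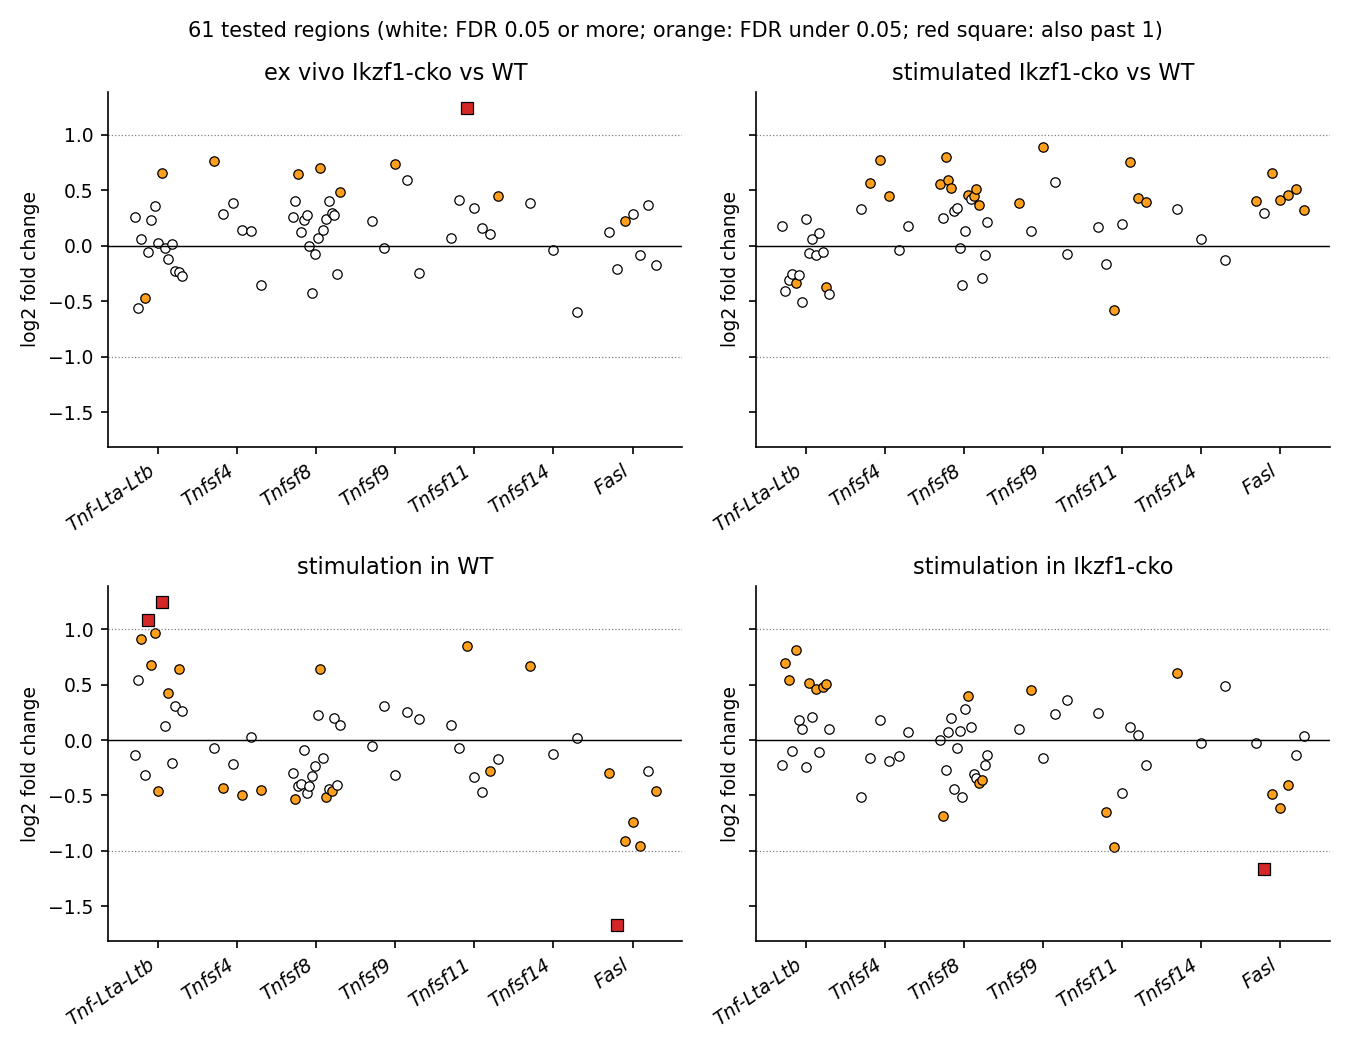
Log2 fold changes (vertical axis) of the 61 tested regions in 4 comparisons, each region drawn at the gene whose start site is nearest among the 9, with Tnf, Lta and Ltb together. White circles did not pass the FDR, orange circles did, and red squares were also over 1 in size; the squares are 1 Tnfsf11 region ex vivo, the Tnf and Ltb start sites and 1 Fasl region with stimulation in WT, and the same Fasl region in Ikzf1-cko Treg.

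The start sites themselves differed in level per length. In WT Treg ex vivo the mean signal was highest over Fasl (31.9 ± 3.43 FPKM, SD, n = 3 here and in all means), Tnfsf8 (28.3 ± 2.78) and Tnfsf11 (24.7 ± 1.2). Lta (19.1 ± 0.946) and Tnfsf4 (18.5 ± 0.736) followed, then Ltb (11.9 ± 1.26), Tnfsf14 (11.3 ± 0.841) and Tnfsf9 (11.2 ± 0.791), and Tnf was lowest (9.6 ± 0.709). Neighbors within each of these sets overlapped in their libraries, so that their order is not resolved, whereas the sets did not overlap. Among the 12390 protein-coding genes with a region over their start site, Tnf stood at percentile 19.9 in WT ex vivo, 32.1 in Ikzf1-cko ex vivo, 49.2 in WT stimulated and 39.6 in Ikzf1-cko stimulated Treg, and Fasl at 64.7, 57.2, 33.3 and 41.5. After stimulation the order in WT Treg was Lta, Ltb, Tnf, Tnfsf8 and Tnfsf11, with overlapping libraries from each to the next, then Fasl, which did not overlap Tnfsf11 or Tnfsf9 but reached above the lowest Tnf library, and then Tnfsf9, Tnfsf4 and Tnfsf14, each of which overlapped the next. In Ikzf1-cko Treg the order ex vivo ran from Tnfsf8 (34.6 ± 5.34 FPKM) through Fasl, Tnfsf11, Tnfsf4, Lta, Tnf, Ltb and Tnfsf9 to Tnfsf14 (11.1 ± 0.394), with Tnfsf9 at the same rounded mean, and each overlapped the next except Tnfsf11 and Tnfsf4. After stimulation it ran from Tnfsf11 (27.6 ± 1.08 FPKM) through Tnfsf8, Lta, Fasl, Tnf, Ltb, Tnfsf4 and Tnfsf9 to Tnfsf14 (10.9 ± 0.963), and each overlapped the next except Tnfsf9 and Tnfsf14.

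**Figure D2:**
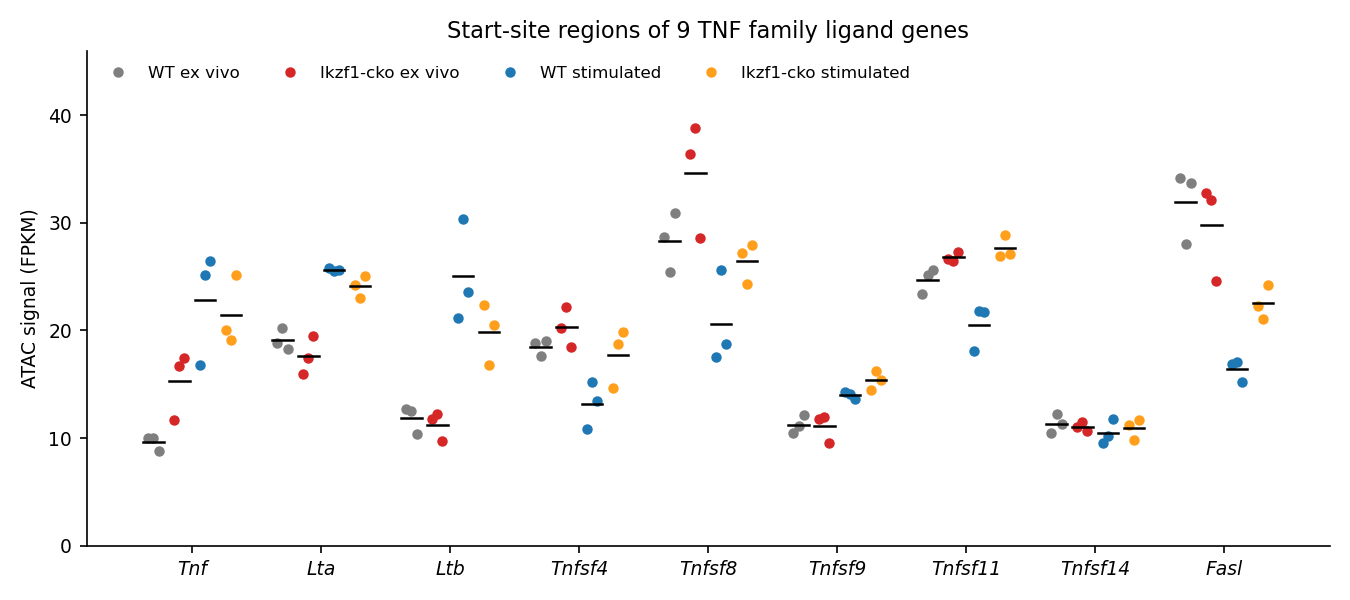
ATAC signal in FPKM (vertical axis) of the region over the start site of each of the 9 genes, with 1 point per library, 4 groups per gene and black lines at the group means. Tnf and Ltb move up with stimulation, Fasl moves down, and Tnfsf14 stays between 9.52 and 12.2 FPKM in all 12 libraries.

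The region over the Tnf start site (OCR_50259, chr17:35338863-35339246, reaching into the first exon) was the one start site of the 9 that passed the FDR ex vivo with library totals as the scale, and it was higher in Ikzf1-cko Treg. The Tnfsf8 start site (OCR_79296) also passed with TMM scaling (0.41, adjusted p 0.022) and with the third Ikzf1-cko ex vivo library left out (0.40, adjusted p 0.0054). The signal of the Tnf start-site region was 10.0, 10.0 and 8.78 FPKM in the 3 WT libraries ex vivo and 11.7, 16.7 and 17.4 in the Ikzf1-cko libraries. Stimulated WT libraries held 16.8, 25.2 and 26.5 FPKM and stimulated Ikzf1-cko libraries 20, 19.1 and 25.2. All Ikzf1-cko libraries lay above all WT libraries ex vivo, whereas the genotypes overlapped after stimulation. The log2 difference between genotypes was 0.66 ± 0.216 (SE) ex vivo, with an adjusted p of 0.027, and -0.07 ± 0.189 after stimulation, with an adjusted p of 0.79. The ex vivo difference lost its call at the FDR when any 1 of the 3 WT ex vivo libraries or the second Ikzf1-cko ex vivo library was left out, with adjusted p from 0.058 to 0.1, and ranged from 0.0073 to 0.1 over 16 alternatives (TMM, DESeq2, loess normalization, a replicate block and each of the 12 libraries left out), 12 of which it passed. With every library thinned to the reads of the shallowest, the difference was 0.69 and did not pass, with an adjusted p of 0.056.

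Stimulation raised the same region by 1.24 ± 0.229 on the log2 scale in WT Treg, with an adjusted p of 7.7e-05, and all stimulated libraries lay above all ex vivo libraries. In Ikzf1-cko Treg it rose by 0.51 ± 0.172, with an adjusted p of 0.028, which was 0.05 with TMM scaling, 0.16 with DESeq2, 0.21 with the first Ikzf1-cko ex vivo library left out and 0.19 with the third Ikzf1-cko stimulated library left out. The difference between both responses was -0.73 ± 0.288 and did not pass the FDR, with an adjusted p of 0.11. The sequence printed for this region is the stretch upstream of the start site that carries its 2 Ikaros cores, and 32.1% of tested regions of like length held as many or more.

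Lta encodes lymphotoxin alpha, a secreted relative of TNF, and Ltb encodes the membrane-bound subunit that anchors it. The Lta start site (OCR_50261) stood at 18.8, 20.2 and 18.3 FPKM in WT and 16.0, 17.4 and 19.5 in Ikzf1-cko libraries ex vivo. After stimulation it stood at 25.8, 25.5 and 25.6 FPKM in WT and 24.2, 23.0 and 25.1 in Ikzf1-cko libraries. The stimulated libraries lay above the ex vivo libraries in both genotypes, and the genotypes overlapped ex vivo. After stimulation the Ikzf1-cko libraries lay below the WT libraries by a small margin, a difference of -0.09 with an adjusted p of 0.61. The rises were 0.42 ± 0.143 in WT and 0.46 ± 0.12 in Ikzf1-cko Treg, with adjusted p of 0.015 and 0.0055. With DESeq2 the adjusted p of OCR_50261 was 0.085 and 0.055, and in WT Treg it was 0.063 without WT ex vivo replicate 3 and 0.05 without WT stimulated replicate 1. When thinned, it was 0.015 in WT and 0.14 in Ikzf1-cko Treg.

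The Ltb start site (OCR_50255) was at 12.7, 12.5 and 10.4 FPKM in WT and 11.8, 12.2 and 9.76 in Ikzf1-cko libraries ex vivo. Stimulation took it to 21.2, 30.4 and 23.6 FPKM in WT and 22.4, 16.8 and 20.5 in Ikzf1-cko libraries. Both genotypes moved up without overlap, and they overlapped each other in both states. The rise was 1.09 ± 0.145 in WT, with an adjusted p of 7.5e-07, and 0.81 ± 0.126 in Ikzf1-cko Treg, with an adjusted p of 1.6e-05, and the WT rise fell short of the fold threshold without WT ex vivo replicate 3 (0.99) and without WT stimulated replicate 2 (0.92). The difference between both rises was -0.27 with an adjusted p of 0.39. After stimulation the Ltb start site was lower in Ikzf1-cko Treg with a log2 difference of -0.33 ± 0.129 and an adjusted p of 0.03. That difference of OCR_50255 passed the FDR in 11 of 16 alternatives and was -0.57 with loess normalization. It was -0.26 with TMM scaling and -0.23 with DESeq2, with adjusted p of 0.099 and 0.23, and with WT stimulated replicate 2, Ikzf1-cko stimulated replicate 2 or Ikzf1-cko stimulated replicate 3 left out it was -0.17, -0.23 and -0.36, with adjusted p of 0.35, 0.18 and 0.053. The NF-kB match in the sequence printed for this region is one that 2.42% of tested regions of like length had.

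Over the whole Tnf-Lta-Ltb locus both genotypes gained signal with stimulation. Of its 15 tested regions 7 rose in WT Treg and 7 in Ikzf1-cko Treg, while 1 and none fell, and the median log2 change was 0.42 and 0.21. The 1 that fell was OCR_50258, over an exon of Tnf 1.14 kb downstream of its start site, singled out after its values were seen. It had the highest mean signal of the locus ex vivo. In WT Treg it went from 48.1 ± 4.84 to 35.3 ± 6.35 FPKM (-0.46 ± 0.126, adjusted p 0.0032), without overlap. In Ikzf1-cko Treg it went from 49.3 ± 0.509 to 41.6 ± 1.78 FPKM (-0.24 ± 0.102, adjusted p 0.08), also without overlap. The difference between both responses was 0.22 ± 0.162 with an adjusted p of 0.42. The summed signal of the 16 regions of the locus was 149, 152 and 151 CPM in WT and 143, 157 and 150 in Ikzf1-cko libraries ex vivo, which overlapped. Stimulated libraries held 177, 219 and 189 CPM in WT and 188, 162 and 177 in Ikzf1-cko Treg, above every ex vivo library and again overlapping between genotypes. Between genotypes 1 region was higher and 1 lower ex vivo, the Tnf start site and OCR_50254 near Ltb (-0.47 ± 0.166, adjusted p 0.038, singled out after its values were seen). None was higher and 2 were lower after stimulation, the Ltb start site and a region 14.1 kb upstream of Lta that touches an exon of Nfkbil1 (OCR_50264, -0.37 ± 0.141, adjusted p 0.026, past the FDR in 10 of 16 alternatives). Of all regions 8.78% were higher and 12.7% lower ex vivo, and 20.4% and 30.7% after stimulation.

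**Figure D3:**
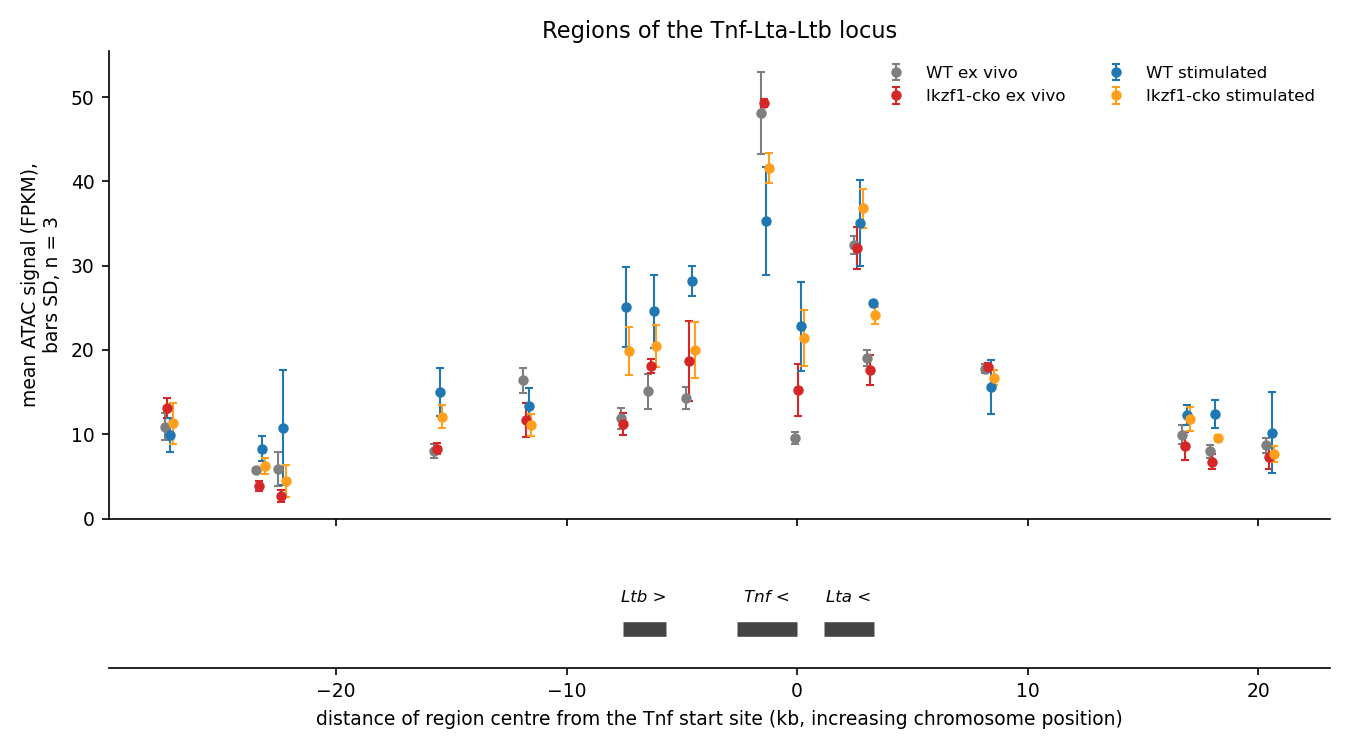
Mean ATAC signal in FPKM (vertical axis, bars SD, n = 3) of the 16 regions of the Tnf-Lta-Ltb locus against the distance of their centre from the Tnf start site in kb, with the 3 genes drawn below and arrows for their direction. At distance 0 the WT ex vivo mean of 9.6 FPKM lies below the other 3 groups, and at Ltb both stimulated means of 25.1 and 19.9 FPKM lie above both ex vivo means.

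The costimulatory ligand genes had their largest genotype differences away from the start sites. Of the tested regions 1 of 5 at Tnfsf9 and 1 of 6 at Tnfsf4 were higher in Ikzf1-cko Treg ex vivo, and 2 and 3 after stimulation, with none lower, where 8.78% of all regions were higher ex vivo and 20.4% after stimulation, and 16.0% and 36.7% of those that met the filter in all libraries. Tnfsf9 encodes the ligand of the receptor 4-1BB. A region 3.29 kb downstream of its start site (OCR_51375, chr17:57248098-57248672, intergenic) was at 24.8, 19.8 and 18.8 FPKM in WT and 35.3, 39.3 and 28.7 in Ikzf1-cko libraries ex vivo. In stimulated libraries it was at 13.5, 18.7 and 18.1 FPKM in WT and 29.4, 32.7 and 30.3 in Ikzf1-cko libraries. The genotypes did not overlap in either state. The log2 difference was 0.74 ± 0.135 ex vivo, with an adjusted p of 0.0002, and 0.89 ± 0.155 after stimulation, with an adjusted p of 3.2e-05, and it passed the FDR in all 16 alternatives in both states, with values of 0.63 to 0.99. The difference between both values was 0.15 ± 0.21, with an adjusted p of 0.69.

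This region carries the AP-1 match in the sequence printed for it and no Ikaros core, which 81.7% of tested regions of like length had. The Tnfsf9 start site (OCR_51374, shared with the gene model Gm11110) stood at 10.5, 11.1 and 12.1 FPKM in WT and 11.8, 12 and 9.56 in Ikzf1-cko libraries ex vivo. Stimulation brought it to 14.3, 14.1 and 13.6 FPKM in WT and 14.5, 16.2 and 15.4 in Ikzf1-cko libraries, above the ex vivo libraries of the same genotype. The rise passed the FDR in Ikzf1-cko Treg (0.46 ± 0.113, adjusted p 0.0036), and in WT Treg the change was 0.31 ± 0.139 with an adjusted p of 0.068. The difference between both responses was 0.15 ± 0.179 with an adjusted p of 0.65.

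Tnfsf8 encodes CD30 ligand and had the most regions, 18 of them tested. Ex vivo 3 of the 18 were higher in Ikzf1-cko Treg and after stimulation 8, and none was lower in either state, beside the same shares of 8.78% and 20.4% of all regions and 16.0% and 36.7% of those above the filter in all libraries. With loess normalization 5 were higher in each state. An intronic region 7.06 kb inside the gene (OCR_79292, chr4:63514703-63515320) was at 8.41, 8.58 and 7.91 FPKM in WT and 12.1, 14.2 and 14.1 in Ikzf1-cko libraries ex vivo. Stimulated values were 10.7, 14.5 and 13.8 FPKM in WT and 17.9, 18.6 and 16.8 in Ikzf1-cko libraries. It was higher in Ikzf1-cko libraries without overlap in both states, by 0.70 ± 0.165 ex vivo with an adjusted p of 0.0028 and by 0.46 ± 0.159 after stimulation with an adjusted p of 0.017. It rose with stimulation in WT Treg by 0.64 ± 0.189 with an adjusted p of 0.006. In Ikzf1-cko Treg it rose by 0.40 ± 0.134 with an adjusted p of 0.029. The difference between both rises was -0.24 ± 0.232 with an adjusted p of 0.55.

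Another intronic Tnfsf8 region, 23.1 kb downstream of the start site (OCR_79284), was at 7.07, 7.61 and 8.95 FPKM in WT and 13.6, 13.1 and 10.6 in Ikzf1-cko libraries ex vivo, and at 6.08, 5.66 and 6.21 and 8.84, 11.1 and 11.1 FPKM after stimulation. Its stimulated difference was 0.80 ± 0.185 with an adjusted p of 0.00068, and the libraries did not overlap in either state. Downstream of the gene, OCR_79282 fell with stimulation in Ikzf1-cko Treg, a log2 change of -0.68 ± 0.147, from a mean of 9.62 ± 1.07 to 6.0 ± 0.461 FPKM, with an adjusted p of 0.00091. OCR_79282 also fell in WT Treg, a change of -0.53 ± 0.196 with an adjusted p of 0.026. The difference between both falls was -0.155 ± 0.248 with an adjusted p of 0.74. The Tnfsf8 start site (OCR_79296) was at 28.7, 25.4 and 30.9 FPKM in WT and 36.4, 38.8 and 28.6 in Ikzf1-cko libraries ex vivo, with an overlap. It fell with stimulation to 17.5, 25.6 and 18.7 FPKM in WT and 27.2, 24.3 and 27.9 in Ikzf1-cko libraries, with overlap in WT only. The log2 changes were -0.46 ± 0.148 and -0.39 ± 0.116, with adjusted p of 0.01 and 0.014. The WT fall was -0.23 with an adjusted p of 0.21 with loess normalization.

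Tnfsf4 encodes OX40 ligand. The farthest of its upstream regions, 19.9 kb from the start site (OCR_6689), was at 10.3, 12.4 and 6.2 FPKM in WT and 15.0, 17.9 and 15.4 in Ikzf1-cko libraries ex vivo, which did not overlap. The difference was 0.77 ± 0.24 with an adjusted p of 0.021, and it was 1.04 and past the fold threshold with loess normalization. For OCR_6689 it was 0.49 with an adjusted p of 0.16 without WT ex vivo replicate 3, its lowest library, and 0.68 with an adjusted p of 0.11 without Ikzf1-cko ex vivo replicate 2. A region 16.4 kb upstream (OCR_6691) was at 9.88, 12.5 and 11.2 FPKM in WT and 23.0, 17.2 and 17.5 in Ikzf1-cko libraries after stimulation, without overlap. That difference was 0.78 ± 0.177 with an adjusted p of 0.00055, and it passed the FDR in all 16 alternatives. The Tnfsf4 start site (OCR_6693) was at 18.8, 17.6 and 19.0 FPKM in WT ex vivo and 10.8, 15.2 and 13.4 in WT stimulated libraries, without overlap, a fall of -0.50 ± 0.149 with an adjusted p of 0.0068. For OCR_6693 that change was -0.26 with an adjusted p of 0.16 with loess normalization and -0.36 with an adjusted p of 0.092 without WT stimulated replicate 1. When thinned, it was -0.39 with an adjusted p of 0.058. In Ikzf1-cko libraries the Tnfsf4 start site was at 20.2, 22.2 and 18.5 FPKM ex vivo and 14.7, 18.7 and 19.9 after stimulation, a difference of -0.19 with an adjusted p of 0.24. The difference between both responses was 0.31 ± 0.19 and did not pass the FDR, with an adjusted p of 0.32.

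Tnfsf14 encodes LIGHT, a ligand of the lymphotoxin beta receptor and of HVEM. None of its 3 tested regions passed the FDR between genotypes in either state. Its start site (OCR_51387) was at 10.5, 12.2 and 11.3 FPKM in WT and 11, 11.5 and 10.7 in Ikzf1-cko libraries ex vivo. The stimulated libraries held 9.52, 10.2 and 11.8 FPKM in WT and 11.2, 9.81 and 11.7 in Ikzf1-cko Treg. All groups overlapped. A region 4.9 kb downstream of the start site (OCR_51386) rose with stimulation from a mean of 4.93 ± 0.902 to 7.91 ± 1.28 FPKM in WT and from 6.49 ± 0.291 to 9.89 ± 0.332 in Ikzf1-cko Treg. On the log2 scale the rises were 0.67 ± 0.199 and 0.61 ± 0.148, with adjusted p of 0.0067 and 0.003. The largest genotype difference ex vivo, at a region over an exon of the neighboring gene C3 (OCR_51388), was -0.60 ± 0.269 with an adjusted p of 0.1.

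Tnfsf11, which encodes RANK ligand, held the one region that was called between genotypes. Of its 7 tested regions 2 were higher in Ikzf1-cko Treg ex vivo, and 3 were higher and 1 lower after stimulation, beside the shares of all regions given for Tnfsf8, and with loess normalization 1 was higher and 1 lower after stimulation. The called region lies 31.3 kb downstream of the start site, just past the end of the gene (OCR_36872, chr14:78674732-78676540, 1809 bases, intergenic). Ex vivo its signal was 4.57, 2.93 and 1.99 FPKM in WT and 6.91, 6.95 and 7.42 in Ikzf1-cko libraries. With stimulation its signal was 5.3, 6.46 and 4.37 FPKM in WT and 4.14, 2.98 and 3.76 in Ikzf1-cko libraries. The Ikzf1-cko libraries thus lay above all WT libraries ex vivo and below all WT libraries after stimulation.

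The ex vivo difference of this region was 1.24 ± 0.187 with an adjusted p of 1.5e-05. Without WT ex vivo replicate 3, its lowest library, it was 0.96 with an adjusted p of 0.0012, short of the fold threshold. After stimulation the difference was -0.58 with an adjusted p of 0.016. Stimulation raised the region in WT Treg by 0.85 ± 0.218, with an adjusted p of 0.002, where ex vivo and stimulated libraries overlapped slightly. In Ikzf1-cko Treg the change was -0.96 ± 0.166, with an adjusted p of 6.9e-05 and no overlap. The test of the difference between these responses gave -1.82 ± 0.275 with an adjusted p of 0.00017. It was the only ligand region called in that test, where 1.98% of all regions were called and 1.4% were called in its direction. At the FDR alone 1 ligand region was positive and 1 negative in that test, against 5.66% and 1.82% of all regions. The whole Tnfsf11 region holds 7 Ikaros cores, 1 of them in the window printed for it, and 41.9% of tested regions of like length hold as many or more.

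The Tnfsf11 start site (OCR_36879) was at 23.4, 25.2 and 25.6 FPKM in WT and 26.6, 26.5 and 27.3 in Ikzf1-cko libraries ex vivo. Stimulation left it at 18.1, 21.8 and 21.7 FPKM in WT and 26.9, 28.9 and 27.1 in Ikzf1-cko libraries, and the genotypes did not overlap in either state. The stimulated difference was 0.43 ± 0.092 with an adjusted p of 0.00027, and it was 0.10 with an adjusted p of 0.4 with loess normalization. When no filter on low counts was applied, 3 more Tnfsf11 regions were called higher in Ikzf1-cko Treg ex vivo, OCR_36871, OCR_36875 and OCR_36881, which were singled out after their values were seen. OCR_36881, 14.0 kb upstream of the start site, was at 3.39, 4.09 and 4.1 FPKM in WT and 8.61, 8.96 and 10.2 in Ikzf1-cko libraries ex vivo, without overlap.

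**Figure D4:**
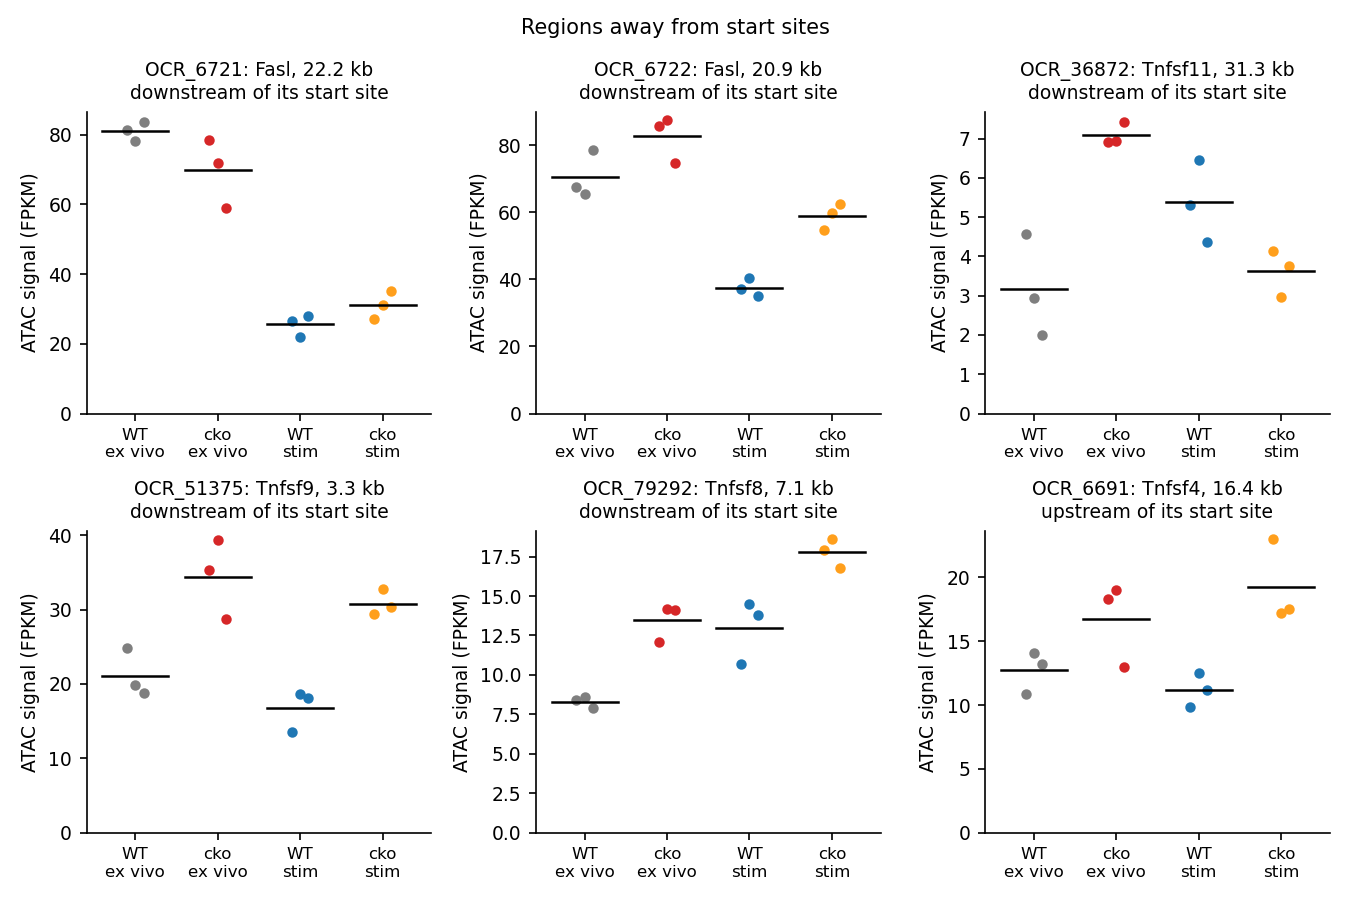
ATAC signal in FPKM (vertical axis) of 6 regions away from start sites, with 1 point per library and black lines at the means of the 4 groups. Both Fasl regions drop with stimulation, the Tnfsf11 region is higher in Ikzf1-cko ex vivo and lower after stimulation, and the Tnfsf9, Tnfsf8 and Tnfsf4 regions are higher in Ikzf1-cko means in both states.

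Fasl encodes Fas ligand, and most of its tested regions lost signal with stimulation. Of the 7 tested, 6 fell in WT Treg and 4 in Ikzf1-cko Treg, and none rose, where 20.7% and 11.5% of all regions fell. Among the regions that met the filter in all libraries 35.7% fell and 10.7% rose in WT Treg, and 20.5% fell and 14.5% rose in Ikzf1-cko Treg. With loess normalization 4 of the 7 fell in each genotype, and in WT Treg OCR_6720 and OCR_6729 then had adjusted p of 0.74 and 0.12. Between genotypes 1 of the 7 was higher in Ikzf1-cko Treg ex vivo and 6 were higher after stimulation, where 8.78% and 20.4% of all regions were higher. All 7 met the filter in all libraries, and of such regions 16.0% and 36.7% were higher. The 6 were 2 with loess normalization, and 4 without WT stimulated replicate 1 or 3 or without Ikzf1-cko stimulated replicate 2 or 3. They were also 4 with limma or when thinned, and 7 with DESeq2 or without Ikzf1-cko stimulated replicate 1. The summed signal of its 10 regions was 231, 211 and 242 CPM in WT and 247, 248 and 213 in Ikzf1-cko libraries ex vivo, with an overlap. Stimulated libraries had 127, 141 and 127 CPM in WT and 167, 176 and 190 in Ikzf1-cko libraries, without overlap between genotypes and below every ex vivo library.

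The largest fall was at an intergenic region 22.2 kb downstream of the start site (OCR_6721, chr1:163695969-163696465), whose centre is the sequence with no motif match. Ex vivo it was at 81.3, 78.1 and 83.6 FPKM in WT and 78.4, 71.9 and 59.0 in Ikzf1-cko libraries. After stimulation it was at 26.6, 22.1 and 28.0 FPKM in WT and 27.1, 31.1 and 35.3 in Ikzf1-cko libraries, far below all ex vivo libraries and with the genotypes overlapping. The change was -1.67 ± 0.133 in WT, with an adjusted p of 6.5e-11, and -1.16 ± 0.109 in Ikzf1-cko Treg, with an adjusted p of 4.2e-09. Across the alternatives it stayed between -1.73 and -1.43 in WT and between -1.27 and -1.07 in Ikzf1-cko Treg. The falls differed by 0.51 ± 0.176, with an adjusted p of 0.071.

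Its neighbor, 20.9 kb downstream of the start site (OCR_6722, chr1:163696657-163697733), was at 67.5, 65.6 and 78.7 FPKM in WT and 85.7, 87.5 and 74.8 in Ikzf1-cko libraries ex vivo, which overlapped. It dropped to 37.2, 40.4 and 35.1 FPKM in WT and 54.8, 59.8 and 62.6 in Ikzf1-cko libraries, which did not overlap. The genotype difference was 0.22 ± 0.079 ex vivo, with an adjusted p of 0.04, and 0.65 ± 0.092 after stimulation, with an adjusted p of 1.8e-06. The stimulated difference was 0.27 with an adjusted p of 0.0081 with loess normalization, and the ex vivo one was 0.08 with an adjusted p of 0.46. The difference between both was 0.43 ± 0.121, with an adjusted p of 0.026 that was 0.12 with TMM scaling, 0.081 with DESeq2, 0.28 with loess normalization and 0.097 when thinned.

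The Fasl start site (OCR_6726) was at 34.2, 28.0 and 33.7 FPKM in WT and 32.8, 32.1 and 24.6 in Ikzf1-cko libraries ex vivo. Stimulated libraries stood at 16.9, 17.1 and 15.2 FPKM in WT and 22.3, 21.1 and 24.2 in Ikzf1-cko libraries. The stimulated libraries lay below the ex vivo libraries in both genotypes, and the genotypes overlapped only ex vivo. The fall was -0.95 ± 0.137 in WT, with an adjusted p of 2.5e-06, and -0.41 ± 0.109 in Ikzf1-cko Treg, with an adjusted p of 0.0066, and both falls differed by 0.54 ± 0.177 with an adjusted p of 0.054. The stimulated difference between genotypes was 0.46 ± 0.138 with an adjusted p of 0.0064, and it was 0.20 with an adjusted p of 0.27 with loess normalization.

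**Figure D5:**
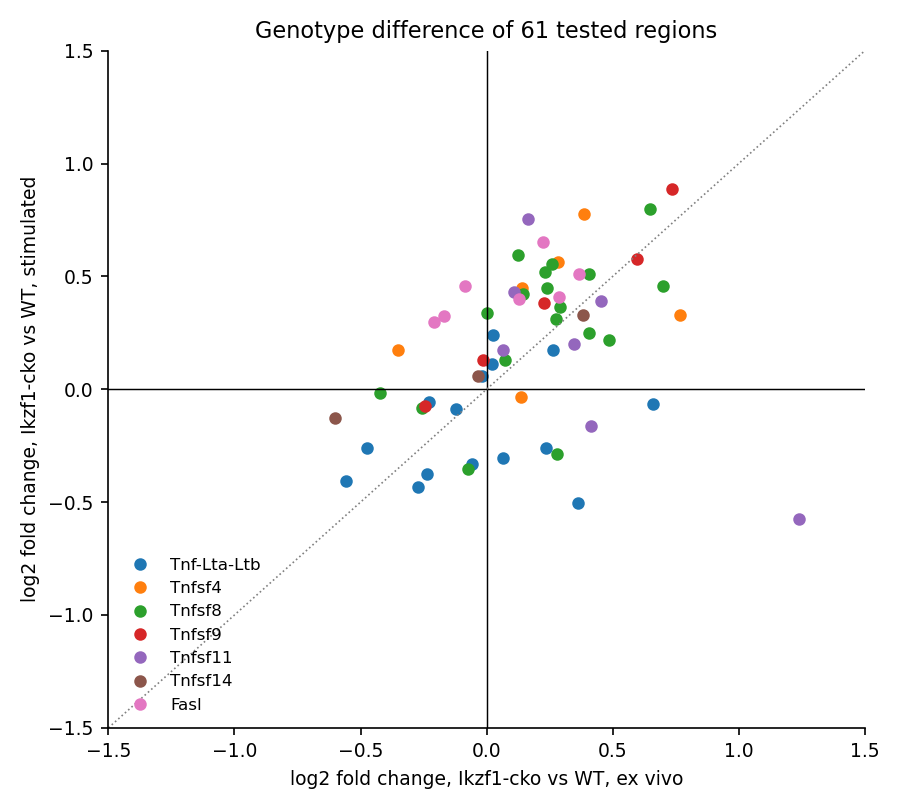
Log2 difference between Ikzf1-cko and WT Treg of the 61 tested regions, ex vivo on the horizontal and stimulated on the vertical axis, colored by gene, with the dotted line marking equal differences. Of the 61 points 33 lie above 0 on both axes, and the Tnfsf11 region at 1.24 and -0.58 is the point farthest to the right and the lowest.

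The genes whose start-site region moved most like that of Tnf over the 12 libraries were Slc35b1 (Pearson r 0.96), Llgl2 (0.944), Rnf8 (0.944), Ep300 (0.938) and Map4k4 (0.937), out of 11983 genes compared on log2(CPM + 1). The 12 points share 4 groups and their depths, so the correlations describe these libraries only.

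Genes of the same pathway were counted by the same windows. Around 9 other TNF family ligand genes, 4 of 27 tested regions were higher and 2 lower in Ikzf1-cko Treg ex vivo, and 10 were higher and 1 lower after stimulation. Among them a region of Tnfsf15, the neighbor of Tnfsf8, was called higher ex vivo, at 1.34 with an adjusted p of 4.8e-06. Around the 10 receptors of the ligands, 19 of 89 tested regions were higher and 5 lower ex vivo, and 27 were higher and 6 lower after stimulation. With stimulation 5 receptor regions rose and 33 fell in WT Treg, and 2 rose and 33 fell in Ikzf1-cko Treg. Of these receptor regions 2 were called higher and 5 lower in WT Treg, and 1 higher and 1 lower in Ikzf1-cko Treg. Falling regions included one at Tnfrsf1b, the second TNF receptor, at -1.2 in WT and -1.05 in Ikzf1-cko Treg, with adjusted p of 2.7e-10 and 2.2e-10. Rising ones included one at Tnfrsf1a, at 1.58 in WT and 1.34 in Ikzf1-cko Treg, with adjusted p of 0.0043 and 0.018. Around 15 genes of receptor-proximal signaling, 15 of 116 tested regions were higher and 1 lower ex vivo, and 44 were higher and none lower after stimulation. With stimulation 10 regions of these genes rose and 39 fell in WT Treg, and 13 rose and 23 fell in Ikzf1-cko Treg. In each genotype 2 were called higher and 3 lower. The 2 called higher lay at Nfkbia (1.12 in WT and 1.06 in Ikzf1-cko Treg) and Map3k14 (1.49 and 1.76). The genes also include Tnfaip3, an inhibitor of NF-kB signaling, where a region fell, at -1.5 in WT and -1.26 in Ikzf1-cko Treg, with adjusted p of 6.8e-10 and 5.3e-10. The background of these counts is 8.78% higher and 12.7% lower of all tested regions ex vivo, 20.4% and 30.7% after stimulation, and for stimulation 26.9% rising and 20.7% falling in WT and 12% and 11.5% in Ikzf1-cko Treg. Among the regions that met the filter in all libraries, 16.0% were higher and 11.5% lower ex vivo, and 36.7% and 9.86% after stimulation. With stimulation 10.7% of such regions rose and 35.7% fell in WT Treg, and 14.5% and 20.5% in Ikzf1-cko Treg. Of all regions, stimulation calls were 17.7% higher and 2.32% lower in WT Treg, and 3.02% and 0.632% in Ikzf1-cko Treg. Among the regions that met the filter in all libraries these shares were 0.438% and 3.18%, and 0.242% and 0.563%. The counts of these lists are not limited to such regions. The regions named from these lists were singled out after their values were seen.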

How the data were processed

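ATAC-seq was measured in 12 libraries, 3 per group. According to the study's methods the reads were aligned with bowtie2, duplicates were removed and peaks were called with macs2 in each replicate, and merged peaks found in fewer than 2 replicates were dropped before both cell types were merged to reference regions. The deposited table gives a raw count of reads per region and library and the authors' FPKM, which the counts, the region lengths and the library totals give back. The submitters' notes name mm9, whereas the methods print another assembly for the alignment. The region coordinates were taken as mm9 and read against NCBIM37 and GENCODE M1. A further deposited table holds the authors' own comparisons (fold changes and p-values) and was not used.

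Counts were tested with edgeR 4.0.16 (glmQLFit and glmQLFTest, R 4.3.3) with library totals, 4 group means and all 12 libraries, on the 69957 regions that reached 3.6 CPM in 3 libraries or more. Calls needed a Benjamini-Hochberg adjusted p under 0.05 and a log2 fold change over 1 in size. On simulated counts 199 of 200 changed regions (log2 fold change 2) were recovered with 2 false calls among 69957. The simulation had the same spread for all regions and no trend of the differences with signal strength. Its changes were larger than any log2 fold change of the tested ligand regions, so it gives no error rate for these data. Alternatives used TMM, DESeq2 1.42.0, loess offsets, limma 3.58.1 on log2(FPKM + 1) and log2(FPKM + 0.1), other filters, thinning, a replicate block and each library left out. Same-group libraries differed by more than sampling noise (chi-square per degree of freedom 1.2 to 2.92). The methods call the replicates biological and divided the sorted cells between both states, whereas the labels tie no ex vivo library to a stimulated one and do not say whether replicates were separate mice, so p-values measure the spread between these libraries. The named regions are the start-site region of each gene, the region with the smallest p per gene and comparison, and each called region, up to 5 in each direction outside the ex vivo comparison, with the genes whose start-site signal correlated best with Tnf. Motifs were searched on both strands. Members and lists were chosen with earlier results of these data known. Figures were drawn with Matplotlib 3.10.9.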

Additional observations from a re-analysis of the deposited data

Results flagged for a closer look

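The responses to stimulation of 2 of the 61 tested regions differed between genotypes in the test of that difference. At the Tnfsf11 region OCR_36872 the difference was -1.82 on the log2 scale, with an edgeR adjusted p of 0.00017. Every Ikzf1-cko ex vivo library lay above every Ikzf1-cko stimulated library, and the WT group means moved the other way. At the Fasl region OCR_6722 the difference was 0.43 with an adjusted p of 0.026, with a fall of -0.91 in WT and -0.48 in Ikzf1-cko Treg. It did not pass with TMM scaling (0.12), DESeq2 (0.081), loess normalization (0.28) or thinning (0.097), and the adjusted p was 0.016 to 0.12 with a library left out. The WT stimulated libraries are also those with the smallest share of reads in strong regions, and its part in the Fasl value was not tested.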

How the results depend on the processing

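The count of called regions ex vivo, 1, was 2 with loess normalization, 4 with no filter, 2 when thinned, 10 at the FDR alone, and 0 to 2 with a library left out (0 without WT ex vivo replicate 3, 2 without WT ex vivo replicate 2). The stimulated genotype count, 0, was 2 with no filter and 25 at the FDR alone. The count for stimulation in WT, 3, was 4 with loess normalization (OCR_50253 added), 4 with no filter (OCR_51372 added), 2 with the filter in all libraries (where OCR_50259 was not tested), 24 at the FDR alone and 2 to 4 with a library left out (2 without WT stimulated replicate 2). For stimulation in Ikzf1-cko, 1, it was 2 with TMM, 2 with no filter, 19 at the FDR alone and 1 to 2 with a library left out (2 without Ikzf1-cko stimulated replicate 1). For the difference between responses, 1, it was 2 at the FDR alone and 1 to 2 with a library left out (2 without Ikzf1-cko ex vivo replicate 1, which added OCR_50257, singled out after its values were seen). The cause of these moves was not tested.

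The 57 log2 fold changes of 21 named regions were refitted under 16 alternatives. Of 912 values 824 kept direction and side of the threshold, 54 lost it, 5 gained it and 29 changed sign, all 29 of them from values that did not pass the FDR. With TMM the signs changed to 0.007 at OCR_50259 (stimulated genotypes), and ex vivo to 0.059 at OCR_50255, 0.102 at OCR_51374, 0.082 at OCR_51387 and 0.031 at Fasl OCR_6726, and to -0.017 at OCR_36879 (stimulation in Ikzf1-cko). With DESeq2 they changed to 0.03 at OCR_50259 and 0.017 at OCR_50261 (stimulated genotypes), and ex vivo to 0.029 at OCR_50255, 0.076 at OCR_51374, 0.058 at OCR_51387 and 0.003 at OCR_6726. With loess normalization they changed to 0.001 at OCR_50259, -0.058 at OCR_51374 and -0.133 at OCR_51387 (stimulated genotypes), to -0.005 at OCR_36879 (ex vivo), and at OCR_51387 to 0.111 (stimulation in WT) and 0.032 (stimulation in Ikzf1-cko).

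With a library left out, the sign changes fell within these ranges: -0.26 to 0.049 at OCR_50259 (stimulated genotypes), ex vivo -0.156 to 0.027 at OCR_50255, -0.072 to 0.074 at OCR_51374, -0.078 to 0.019 at OCR_51387 and -0.177 to 0.028 at OCR_6726, and at OCR_51387 -0.011 to 0.145 (stimulated genotypes) and -0.083 to 0.043 (stimulation in Ikzf1-cko).

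Over all regions the calls ex vivo were 3238 (411 higher), 2490 with TMM (685 higher), 2405 with DESeq2 (614 higher), 1606 with loess (825 higher), 7237 with no filter, 1668 with limma on log2(FPKM + 1) and 339 with the filter in all libraries (163 higher). Between stimulated genotypes they were 14932 (813 higher), 4234 with loess (1500 higher), 33290 with no filter and 858 with the filter in all libraries (500 higher). For stimulation in WT they were 14011 (12386 higher), 4239 with loess (2395 higher), 32084 with no filter and 1239 with the filter in all libraries (150 higher). For stimulation in Ikzf1-cko they were 2555 (2113 higher), 1479 with loess (833 higher), 7870 with no filter, 1121 with limma on log2(FPKM + 1) and 276 with the filter in all libraries (83 higher). For the difference between responses they were 1385 (405 positive), 688 with DESeq2 (278 positive), 867 with loess (397 positive), 760 with limma on log2(FPKM + 0.1) (395 positive), 1536 with TMM (283 positive) and 314 with the filter in all libraries (219 positive).

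With a library left out the calls over all regions ranged from 2002 (Ikzf1-cko ex vivo replicate 2) to 8721 (Ikzf1-cko ex vivo replicate 3) ex vivo, from 5415 (WT stimulated replicate 1) to 16227 between stimulated genotypes, from 4451 (WT stimulated replicate 1) to 14830 for stimulation in WT, from 1459 (Ikzf1-cko stimulated replicate 1) to 6787 (Ikzf1-cko ex vivo replicate 3) for stimulation in Ikzf1-cko and from 492 (Ikzf1-cko stimulated replicate 3) to 3386 (Ikzf1-cko ex vivo replicate 1) for the difference between responses. Without WT stimulated replicate 2 or 3 they were 7013 and 5989 between stimulated genotypes and 6391 and 5266 for stimulation in WT. Leaving out any WT stimulated library also cut the tested regions from 69957 to 59125 to 59440, as fewer reached the filter.

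The deviations from the group means of 18 same-numbered pairs correlated at -0.36 to 0.28, 6 of them over 0.1. Differently numbered pairs ranged as widely, from -0.38 to 0.40, so these correlations cannot decide whether libraries shared a mouse. With a replicate block the counts were 1, 0, 3, 1 and 1 in the order above, and all 57 named values kept direction and side of the threshold.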
